A study of Mus musculus with 9 samples.

Results

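The genes described here are 10 precursors of hypothalamic neuropeptides: Sst, Gal, Ghrh, Tac1, Tac2, Penk, Pdyn, Trh, Oxt and Avp. They were chosen by name, as peptide genes of the hypothalamus outside the Pomc, Agrp and Npy group, and not by any measured value. Of the 10, 8 had an entry among the 13588 of the expression table, while Oxt and Avp, which encode the magnocellular hormones oxytocin and vasopressin, had none and were not analysed here.

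All mice were C57/BL6 males homozygous for the floxed Snord116 allele (Snord116tm1Uta/J) and were 10 to 12 weeks old at surgery. Adeno-associated virus (AAV) was injected into the mediobasal hypothalamus, carrying either Cre recombinase behind a CAG promoter or green fluorescent protein (GFP) behind a CMV promoter. Neither promoter is specific for a cell type, and only the Cre virus deletes the floxed gene cluster, a group of small nucleolar RNA genes lost in Prader-Willi syndrome. By the paper's methods, the Cre virus also held more viral genomes per volume than the GFP virus. Deletion, promoter and virus dose therefore cannot be told apart in comparisons of AAV-Cre with AAV-GFP. At 10 weeks after injection, hypothalamic regions were laser-captured and sequenced, with 3 libraries from AAV-GFP mice, 3 from AAV-Cre mice labelled obese and 3 from AAV-Cre mice labelled nonobese. Captured AAV-Cre regions were chosen by Cre staining on neighbouring sections and the AAV-GFP regions were matched to them by position. The sample titles and weight labels of the AAV-Cre mice contradict each other, so the groups are called here by the weight label.

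Neuropeptides are cut out of larger precursors in secretory granules and released onto G protein-coupled receptors. Several of these precursors mark small, separate cell groups: Ghrh lies in arcuate neurons that drive growth hormone release, Sst in periventricular and arcuate neurons, Trh in paraventricular, dorsomedial and lateral neurons. Others, such as Penk, Tac1 and Gal, are made in many hypothalamic nuclei. Because whole captured regions were sequenced, fewer cells of a type and less RNA per cell cannot be told apart in any value below.

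The libraries held 3929672 to 5766994 reads on the listed genes, with a median of 4611358. Values are given as signal, which is CPM (reads scaled to library size) further scaled between libraries by the depositors. A floor of 3 reads corresponded to a signal of 0.525 to 0.786, for counting error only. Reads of the viral Cre gene numbered 5912, 37704 and 1011 in replicates 1, 2 and 3 labelled obese, 19611 to 33105 in the libraries labelled nonobese and 5 or fewer in AAV-GFP, whereas no Snord116 gene had an entry, so the deletion could not be read from this table. None of the 12 neuron markers was at 0 in any library. They summed to 4753 and 4313 in replicates 1 and 3 labelled obese, against 5622 to 7251 in the other 7. Limma called 1 of 12, Eno2, lower in the libraries labelled obese than in AAV-GFP (FDR 0.0755), against 0.555% of entries called. At an unadjusted limma p under 0.05, 3 of 12 were lower there, against 9.88% of entries in either direction. Between the AAV-Cre subsets, 6 of 12 were higher in the libraries labelled nonobese at that p, against 11.4%. Genes of the ventromedial and arcuate region were uneven. Nr5a1, a factor that defines the ventromedial nucleus, was at 0 in AAV-GFP replicate 3, in replicates 1 and 3 labelled obese and in replicate 3 labelled nonobese, and ranged from 15.2 to 46.1 in the other 5 libraries. So 1 of the 12 measured region genes, a marker of the ventromedial nucleus, was at 0 in 4 of 9 libraries. The 12 genes also summed lower there, at 194 to 245 against 324 to 422 in the other 5. Not all followed: Isl1 was 51.1, 36.9, 89.4 and 51.2 in the 4 libraries, in the order named, against 30.9 to 64.2 in the other 5. Replicates 1 and 3 labelled obese also stood apart in immune genes. The 16 MHC and interferon-induced genes summed to 6771 and 6602 in these libraries, against 302 in the remaining library labelled obese, 188 to 330 in AAV-GFP and 181 to 245 in the libraries labelled nonobese. Replicate 2 labelled obese was not free of immune signal. The 7 measured plasma and B cell markers summed to 4839, 158 and 9086 in replicates 1, 2 and 3 labelled obese. Their sums were 2.33 to 7.47 in AAV-GFP and 42.2 to 117 in the libraries labelled nonobese. Of the 5 tested, limma called 4 higher in obese-labelled than in AAV-GFP, against 0.555% of entries.

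Trh encodes the precursor of thyrotropin-releasing hormone, and it gave the clearest separation of groups. Its gene lies on GRCm38 chr6:92242061-92244650, minus strand, and is protein coding with 3 exon blocks. Its upstream sequence is shown with those of Sst, which holds the classical cAMP response element, and Tac1, so that a reader can place these genes beside their values. Each sequence is the 250 bases before the RefSeq start site, read 5′ to 3′ on the strand of the gene (build GRCm38.p6), at chr6:92244651-92244900 for Trh, chr16:23890845-23891094 for Sst and chr6:7554811-7555060 for Tac1. Capitals mark matches to TGACGTCA (the cAMP response element, or CRE), to its half-site TGACG, or to TATAA, each on either strand.
Trh: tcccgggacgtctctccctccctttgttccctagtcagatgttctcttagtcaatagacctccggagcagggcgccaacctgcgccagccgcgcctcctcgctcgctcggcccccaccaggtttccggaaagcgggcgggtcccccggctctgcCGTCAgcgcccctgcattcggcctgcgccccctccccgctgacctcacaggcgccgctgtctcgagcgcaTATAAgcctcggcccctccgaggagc
Sst: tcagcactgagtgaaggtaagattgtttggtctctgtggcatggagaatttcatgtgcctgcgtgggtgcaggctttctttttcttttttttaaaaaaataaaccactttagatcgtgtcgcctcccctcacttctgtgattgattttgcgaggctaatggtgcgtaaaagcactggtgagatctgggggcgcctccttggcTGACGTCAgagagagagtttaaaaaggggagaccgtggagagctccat
Tac1: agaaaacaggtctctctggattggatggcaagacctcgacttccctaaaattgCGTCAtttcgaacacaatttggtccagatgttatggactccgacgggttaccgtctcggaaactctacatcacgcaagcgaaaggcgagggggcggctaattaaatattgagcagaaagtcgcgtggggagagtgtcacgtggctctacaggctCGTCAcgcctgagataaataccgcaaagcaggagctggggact
The RefSeq table held promoters of 9 of the 10 genes, all but Penk. The CRE was found in 1 of these 9, Sst, and in 1.55% of 32851 promoters. Its half-site, which the CRE contains, was found in 4 of 9 (Sst, Trh, Tac1 and Ghrh) and in 17.8% of promoters. TATAA was found in 2 of 9, Trh and Ghrh, and in 22.8% of promoters. These are matches of letters within 250 bases and not shown binding sites.

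Trh signal was 3.74, 13.6 and 9.13 in AAV-GFP replicates 1, 2 and 3. It was 30.6, 30.2 and 69.5 in the libraries labelled obese, and 12.6, 1.57 and 8.54 in those labelled nonobese. All 3 libraries labelled obese lay above all 6 others, with 133 to 299 reads of Trh against 6 to 72. The mean was 43.4 ± 22.6 (SD, n = 3) in the libraries labelled obese, 8.82 ± 4.94 (n = 3) in AAV-GFP and 7.57 ± 5.58 (n = 3) in those labelled nonobese. Between the AAV-Cre subsets, Trh was lower in the libraries labelled nonobese by a log2 fold change of -2.57 (SE 0.64, 95% interval -3.88 to -1.25, limma FDR 0.0699), a call at the FDR threshold of 0.1 used here. Against AAV-GFP, the libraries labelled obese differed by a log2 fold change of 2.21 (SE 0.64, 95% interval 0.90 to 3.52), which did not pass (limma FDR 0.178). It did pass without labelled obese replicate 2 (FDR 0.0529) or labelled nonobese replicate 2 (FDR 0.0701). Against AAV-GFP, the libraries labelled nonobese differed by -0.36 (SE 0.64, limma FDR 0.999). The call between the subsets was lost, with an FDR of 0.118, under edgeR's quasi-likelihood test on the recovered reads, at 0.145 with a pseudocount of 0.1, at 0.259 without a variance trend, at 0.115 with only the 2 groups in the fit, and at 0.226, 0.314, 0.28 and 0.129 without labelled obese replicate 1 or 3 or labelled nonobese replicate 2 or 3.

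**Figure D1:**
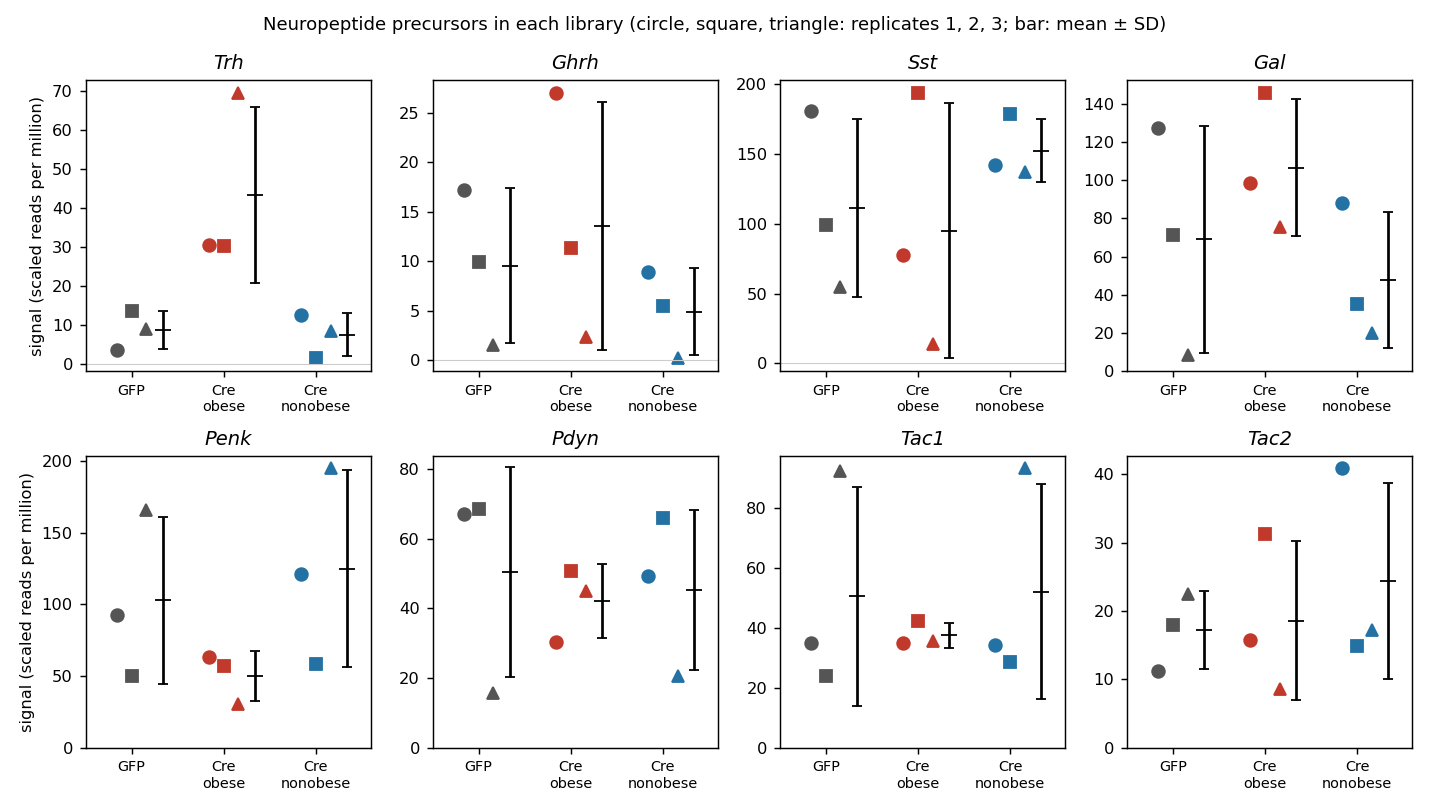
Signal of 8 neuropeptide precursors (y axis, scaled CPM) in each library, by group on the x axis, with replicates 1, 2 and 3 as circle, square and triangle and the mean ± SD as a bar. The 3 Trh points labelled obese, 30.2 to 69.5, lie above the other 6, while the groups overlap for the other 7 genes.

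In replicates 1, 2 and 3 labelled obese, Trh signals of 30.6, 30.2 and 69.5 stood beside MHC and interferon sums of 6771, 302 and 6602. The other 6 libraries had Trh of 1.57 to 13.6 and sums of 181 to 330, and the part of immune genes in the Trh values was not tested. Some glial genes were also called higher in the libraries labelled obese than in AAV-GFP, by limma: 2 of 8 astrocyte markers (Gfap and Aqp4) and 2 of 10 microglia markers (C1qa and C1qb), against 0.555% of entries. The median log2 fold change of the 8 astrocyte markers was 0.21, with a range from -0.37 (S100b) to 3.03 (Gfap). Gfap, the astrocyte filament protein, was 369, 130 and 640 in the libraries labelled obese, 10.1 to 83.0 in AAV-GFP and 17.7 to 60.0 in those labelled nonobese. The 8 astrocyte markers summed to 2663 to 3311, 2259 to 2730 and 2122 to 2797 in the same order, and the 10 microglia markers to 197 to 1023, 144 to 202 and 145 to 194. The microglia sum of replicate 2 labelled obese, 197, lay within the AAV-GFP range. The FDR of Gfap was 0.0119 (limma), and the part of glia in the Trh values was not tested. With only replicate 2 labelled obese kept, Trh was 1.81 above AAV-GFP on the log2 scale (limma FDR 0.5) and 2.17 above the libraries labelled nonobese (log2 fold change -2.17 for nonobese against obese, FDR 0.404), where that library was assumed to vary like the other groups.

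**Figure D2:**
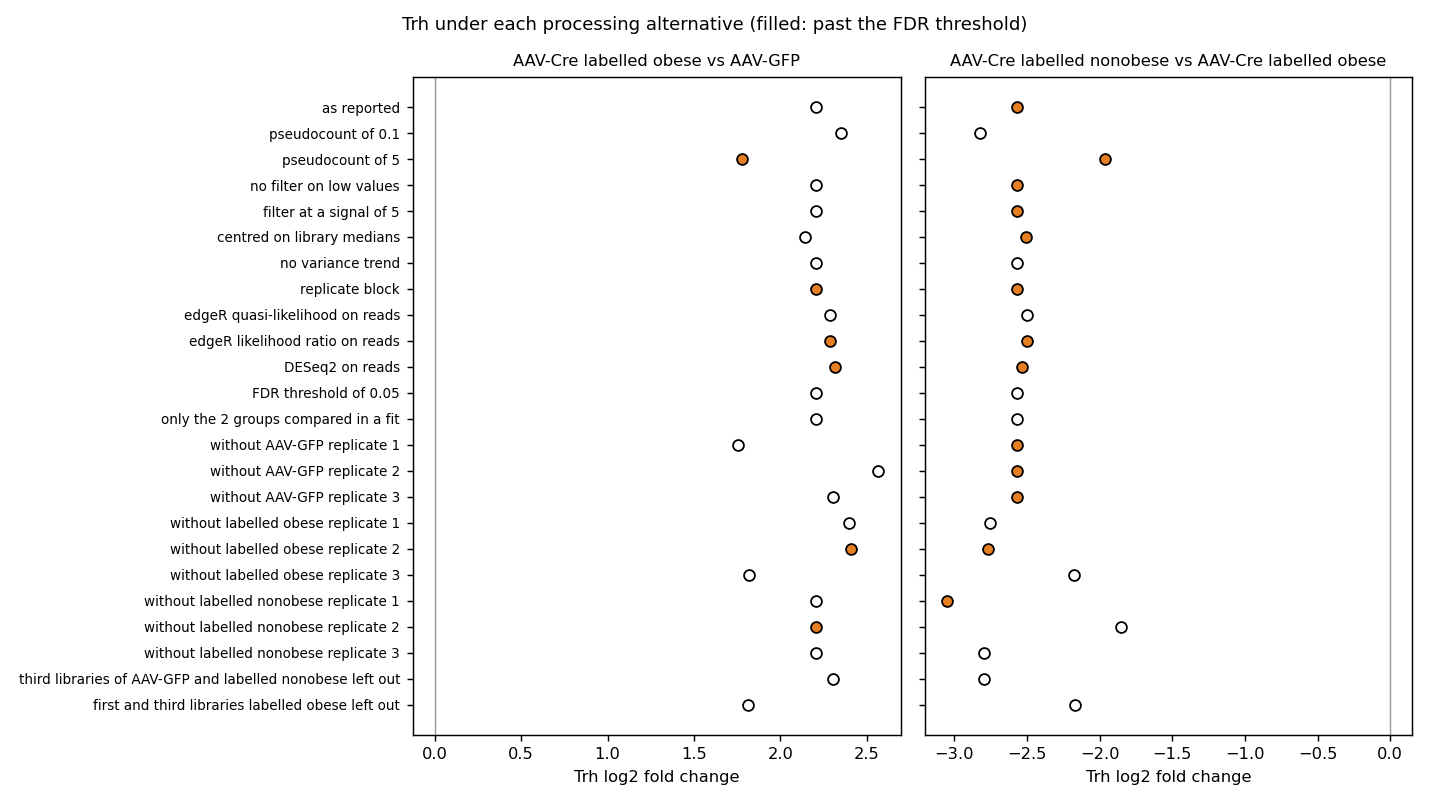
Log2 fold change of Trh (x axis) under each processing alternative (rows), for obese-labelled against AAV-GFP (left) and nonobese-labelled against obese-labelled (right), with filled points where the FDR threshold was passed. The difference stays between 1.76 and 2.57 on the left and between -3.05 and -1.85 on the right, while the calls vary.

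Across the comparisons, few precursors passed the test. In the libraries labelled obese against AAV-GFP, limma called 0 of the 8 measured precursors at FDR under 0.1, where it called 0.555% of all 13506 entries tested. At an unadjusted p under 0.05 it listed 3 of 8 (Trh, Penk and Gal), against 9.88% of entries, and edgeR's quasi-likelihood test called 0 (0.689% of entries), edgeR's likelihood ratio test 1 (1.93%) and DESeq2 1 (2.04%), Trh in both. In the libraries labelled nonobese against AAV-GFP, limma called 0 of 8, against 0.0148% of entries, with 0 at an unadjusted p under 0.05 (2.27% of entries). Here edgeR's quasi-likelihood test, its likelihood ratio test and DESeq2 called 0 of 8 as well, against 0.0148%, 0.0444% and 0.0148% of entries. Between the AAV-Cre subsets, limma called 1 of 8, Trh, against 0.948% of entries. There, 4 of 8 (Trh, Penk, Sst and Gal) had an unadjusted p under 0.05, against 11.4% of entries. Without limma's variance trend 1 of 8 had such a p, as did 1403 of 13506 entries. In obese-labelled against AAV-GFP it was then also 1 of 8, with 1227 entries, where limma gave Gal a p of 0.221 and Penk 0.139. With edgeR's quasi-likelihood test it was 2 of 8 in both comparisons. For calls between the subsets, the quasi-likelihood test gave 0 (1.04% of entries), the likelihood ratio test 2 (Trh and Penk, 2.95%) and DESeq2 1 (Trh, 2.88%). The first and last of these comparisons share the libraries labelled obese, the first and second the AAV-GFP libraries, and the second and last the libraries labelled nonobese. Groups did not overlap for 1 of 8 precursors, Trh, in the first comparison and in the last, where 14.5% and 13.3% of entries did not overlap, and for 0 of 8 in the second, against 9.72%. The median log2 fold change of the 8 was -0.03, 0.02 and 0.13 in the 3 comparisons, against -0.04, -0.02 and 0.02 over all entries.

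With all 6 AAV-Cre libraries set against the 3 AAV-GFP libraries, limma called 0 of 8, against 0.0222% of entries, with 0 at an unadjusted p under 0.05 (3.14% of entries) and 0 with groups that did not overlap (2.01%). The quasi-likelihood test (0.0148% of entries), the likelihood ratio test (0.0518%) and DESeq2 (0.0666%) called 0 of 8 too. A two-sided exact permutation test over the 84 splits of 6 against 3 libraries gave p-values of 0.429 for Trh, 0.595 for Gal, 0.607 for Penk and 0.738 to 0.976 for the other 5. Trh lay above the AAV-GFP median in 4 of 6 AAV-Cre libraries, and Pdyn in 0 of 6.

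**Figure D3:**
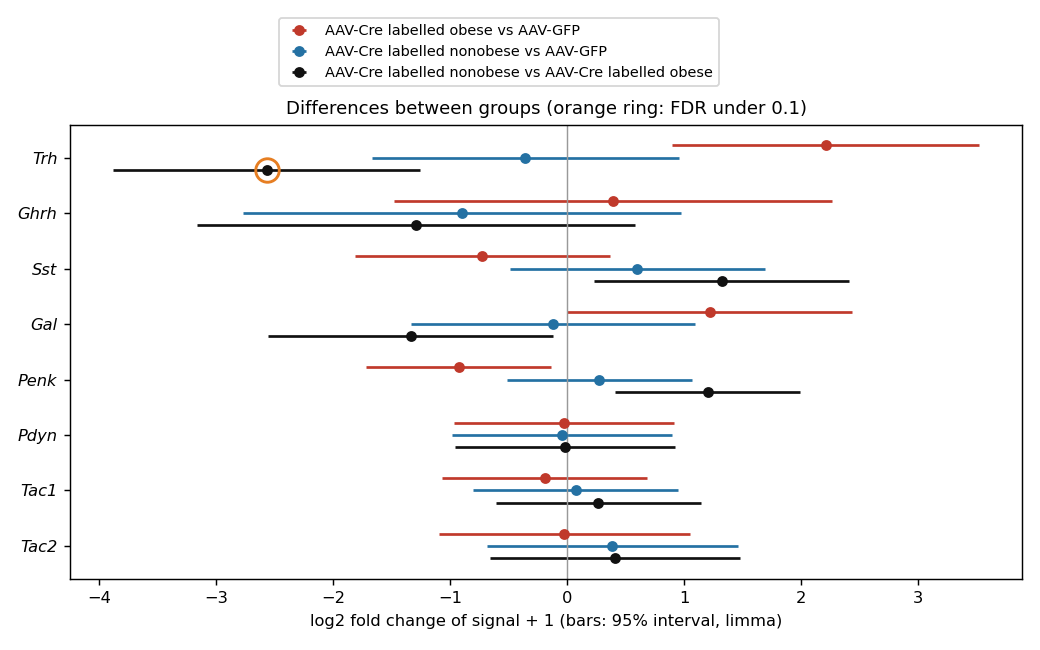
Log2 fold change (x axis, on signal + 1) with its 95% interval for each precursor in 3 comparisons, with an orange ring at FDR under 0.1. The ring is on Trh alone, at -2.57 between the AAV-Cre subsets.

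Among the opioid precursors, Penk encodes the enkephalins and Pdyn the dynorphins. Penk, on chr4:4133531-4138819, minus strand, overlaps the antisense gene A830012C17Rik, which had no entry. Its signal was 92.8, 50.4 and 166 in AAV-GFP, 63.5, 56.7 and 30.4 in the libraries labelled obese, and 121, 58.4 and 195 in those labelled nonobese. The groups overlapped in each comparison. The difference was -0.93 (SE 0.38, limma FDR 0.404) for obese-labelled against AAV-GFP and 1.20 (SE 0.38, 95% interval 0.41 to 1.99, limma FDR 0.189) for nonobese-labelled against obese-labelled. The latter passed without labelled obese replicate 2 (1.32, FDR 0.0538) or labelled nonobese replicate 2 (1.66, FDR 0.0793). Limma then called 906 of 13482 and 55 of 13480 entries, against 128 of 13506 with all libraries. Pdyn, on chr2:129686565-129699844, minus strand, was 67.1, 68.6 and 15.7 in AAV-GFP, 30.4, 50.8 and 45.1 in the libraries labelled obese, and 49.4, 66.0 and 20.5 in those labelled nonobese. Its differences were between -0.04 and -0.02 in these 3 comparisons. The 95% interval for obese-labelled against AAV-GFP ran from -0.97 to 0.91, so changes of nearly 2-fold in either direction were not excluded. Limma drew the spread behind this interval towards that of entries of like level. The within-group SD of Pdyn was 0.87 on the log2 scale, against a median of 0.40 for those entries. Its own spread would give a wider interval, so larger changes were not excluded either.

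Of the tachykinin precursors, Tac1 encodes substance P and neurokinin A, and Tac2 encodes neurokinin B, made by kisspeptin neurons of the arcuate nucleus. Tac1, on chr6:7554879-7565834, plus strand, was 35.2, 24.1 and 92.4 in AAV-GFP, 34.9, 42.4 and 35.6 in the libraries labelled obese, and 34.5, 28.5 and 93.5 in those labelled nonobese. Only replicate 3 of AAV-GFP and replicate 3 labelled nonobese stood above the other 7 libraries, which lay between 24.1 and 42.4. The group differences were -0.19 (SE 0.43), 0.07 (SE 0.43) and 0.27 (SE 0.43). Tac2, on chr10:127724478-127731768, plus strand, was 11.2, 18.0 and 22.5 in AAV-GFP, 15.8, 31.3 and 8.60 in the libraries labelled obese, and 41.0, 14.9 and 17.3 in those labelled nonobese. Its highest and lowest libraries belonged to the AAV-Cre subsets, and no comparison gave a limma FDR under 0.8.

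The hypophysiotropic pair Sst and Ghrh act in opposite directions on growth hormone: somatostatin restrains its release and growth hormone-releasing hormone drives it. Sst, on chr16:23889573-23890958, minus strand, was 180, 98.8 and 55.0 in AAV-GFP, 77.6, 193 and 13.7 in the libraries labelled obese, and 142, 178 and 137 in those labelled nonobese. The libraries labelled obese spanned 14.1-fold, the ones labelled nonobese 1.30-fold. The latter differed from the former by 1.32 (SE 0.53, 95% interval 0.23 to 2.41, limma FDR 0.321), which was 0.30 (FDR 0.829) without replicate 3 labelled obese and -0.35 (FDR 0.77) with both replicates 1 and 3 of that group left out. Without replicate 2 labelled obese it was 2.16, with an FDR of 0.0021, and Sst was then also called lower than in AAV-GFP, by -1.56 (FDR 0.0368). Ghrh, on chr2:157329497-157347506, minus strand, was 17.2, 9.96 and 1.55 in AAV-GFP, 27.0, 11.4 and 2.32 in the libraries labelled obese, and 8.93, 5.5 and 0.213 in those labelled nonobese. The lowest value stood on 1 read, under the floor of 3 reads (0.640 in that library). Each group had its lowest Ghrh in replicate 3, and the labels do not say whether equal numbers pair mice. The differences were 0.39 (SE 0.91), -0.90 (SE 0.91) and -1.29 (SE 0.91), with limma FDR of 0.923, 0.999 and 0.623, and the wide errors leave changes of several-fold undetectable.

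Gal encodes galanin, a peptide of many hypothalamic nuclei that promotes feeding when injected. The gene, on chr19:3409915-3414544, minus strand, had a signal of 127, 71.2 and 8.55 in AAV-GFP, 98.6, 146 and 75.5 in the libraries labelled obese, and 88.2, 35.4 and 20.3 in those labelled nonobese. Its lowest libraries were again AAV-GFP replicate 3 and labelled nonobese replicate 3. The libraries labelled obese differed from AAV-GFP by 1.22 (SE 0.59, 95% interval 0.003 to 2.44, limma FDR 0.503), which fell to 0.11 without AAV-GFP replicate 3. Between the subsets the log2 fold change was -1.34 (SE 0.59, limma FDR 0.38).

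The 2 libraries that stood apart in Tac1 differed from the rest in several genes at once. AAV-GFP replicate 3 and labelled nonobese replicate 3 had the highest Tac1 (92.4 and 93.5) and Penk (166 and 195), the lowest Gal (8.55 and 20.3) and Pdyn (15.7 and 20.5), and Ghrh of 1.55 and 0.213. Pomc, the melanocortin precursor of the arcuate nucleus, was 8.16 and 12.8 there, against 4.65 in replicate 3 labelled obese and 36.0 to 100.5 in the other 6. The ventromedial factor Nr5a1 was at 0 in both and Fezf1 was 0 and 3.63, but replicates 1 and 3 labelled obese were low in these genes too, with Nr5a1 at 0 and Fezf1 at 2.03 and 0.465. Sim1, a factor of the paraventricular nucleus, was 22.3 and 11.1, above the other 7 libraries (0 to 7.67). The 12 measured arcuate and ventromedial region genes summed to 245 and 245 in these libraries, to 194 and 196 in replicates 1 and 3 labelled obese, and to 324 to 422 in the other 5. The first of these libraries is from an AAV-GFP mouse and the other from an AAV-Cre mouse. The part of dissected position in these values was not tested.

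**Figure D4:**
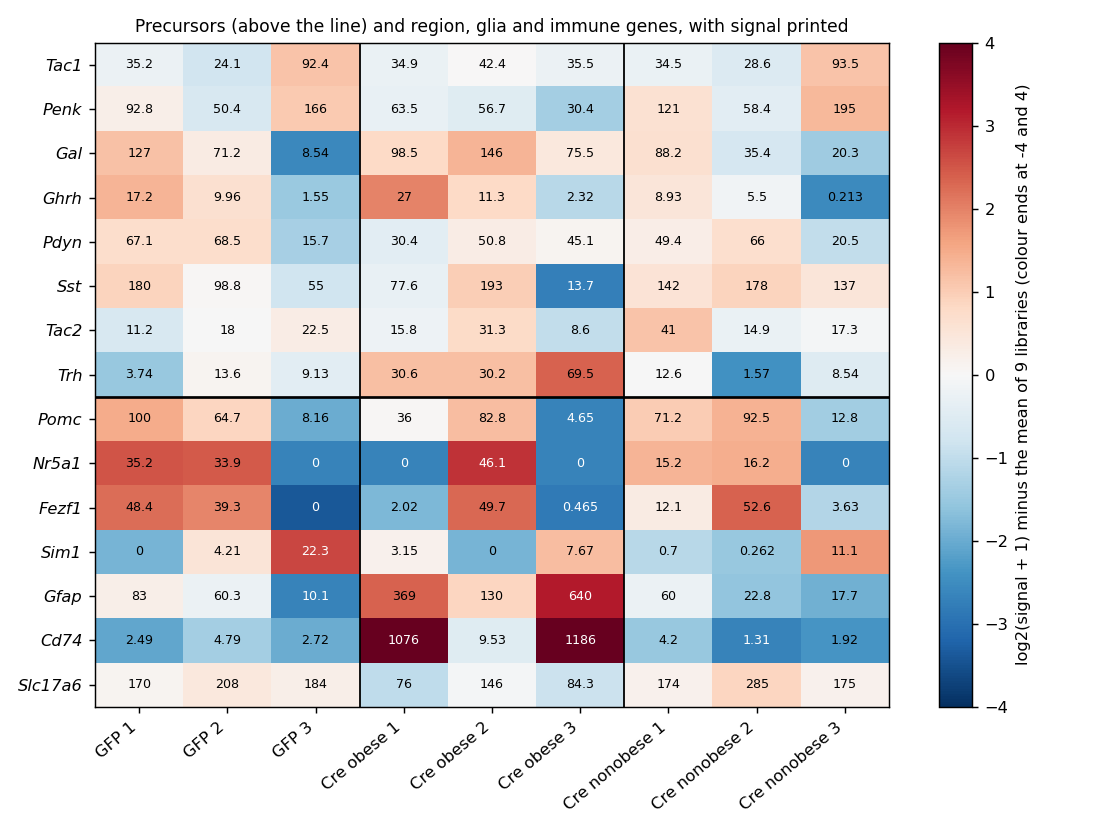
Signal (printed) of the 8 precursors above the line and of 7 region, neuron, glia and immune genes below it in the 9 libraries (columns), coloured by log2(signal + 1) minus the mean of the 9 libraries. GFP 3 and Cre nonobese 3 are both red for Tac1, Penk and Sim1 and blue for Gal, Ghrh, Pdyn and Nr5a1, whereas Gfap and Cd74 are high in Cre obese 1 and 3.

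With AAV-GFP replicate 3 and labelled nonobese replicate 3 both left out, limma called 0 precursors in any comparison. Of 13430 entries it then called 13 in obese-labelled, 2 in nonobese-labelled and 3 in all AAV-Cre against AAV-GFP, and 43 between the subsets. The Trh difference between the AAV-Cre subsets was then -2.80 (FDR 0.166), and that of obese-labelled against AAV-GFP 2.31 (FDR 0.479). The Tac1 difference of obese-labelled against AAV-GFP turned from -0.19 to 0.35 and that of Ghrh from 0.39 to -0.43.

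The precursors varied more between libraries of a group than most genes. Each library came from a separate mouse, captured on single brain slices and amplified from little RNA. Differences among mice, dissected position and amplification cannot be told apart in this spread. The within-group SD of log2(signal + 1) was 1.32 for Gal, 1.20 for Sst and 1.54 for Ghrh, where the median entry of like mean level (within 0.5 on the log2 scale) had 0.35, 0.29 and 0.88. It exceeded that of 99.9% of like entries for Gal, 99.6% for Sst, 99.4% for Penk, 98.7% for Pdyn, 97.2% for Tac1 and 96.0% for Ghrh, and of 85.0% for Trh and 75.0% for Tac2. Limma drew the SEs and intervals of the precursors towards the spread of entries of like level. They are therefore smaller than a precursor's own spread would give. Counting error of reads was smaller: in AAV-GFP, Gal had a coefficient of variation of 86.1%, where its reads alone gave 5.69%, and Trh one of 56.0% where its reads gave 15.0%. That error leaves out the sampling of RNA before amplification.

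Per kilobase of exon, Sst had the highest mean level over the 9 libraries, at a signal per kb of 166, followed by Gal (94.6), Penk (56.8), Pdyn (15.9), Tac2 (14.6), Trh (14.4), Ghrh (14.0) and Tac1 (13.8). The order was not fixed. Sst exceeded Gal in 7 of 9 libraries and Gal exceeded Penk in 7 of 9. Penk exceeded Pdyn in 9 of 9, and among the 5 genes of lowest mean no neighbour exceeded the next in more than 7 of 9. Trh ranked from 2nd of 8, in labelled obese replicate 3 at 50.2 per kb against 19.0 for Sst and 18.6 for Penk, to 8th, and Ghrh ranked from 3rd to 8th. In AAV-GFP, the means per kb were 154 ± 88.2 (SD, n = 3) for Sst, 87.6 ± 75.5 for Gal and 63.0 ± 35.7 for Penk, then 17.5 for Pdyn, 14.9 for Tac1, 14.3 for Ghrh, 12.5 for Tac2 and 6.37 for Trh. The place of Trh in the mean of 9 libraries drew on the libraries labelled obese, where it was 31.4 per kb, against 5.47 in those labelled nonobese.

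**Figure D5:**
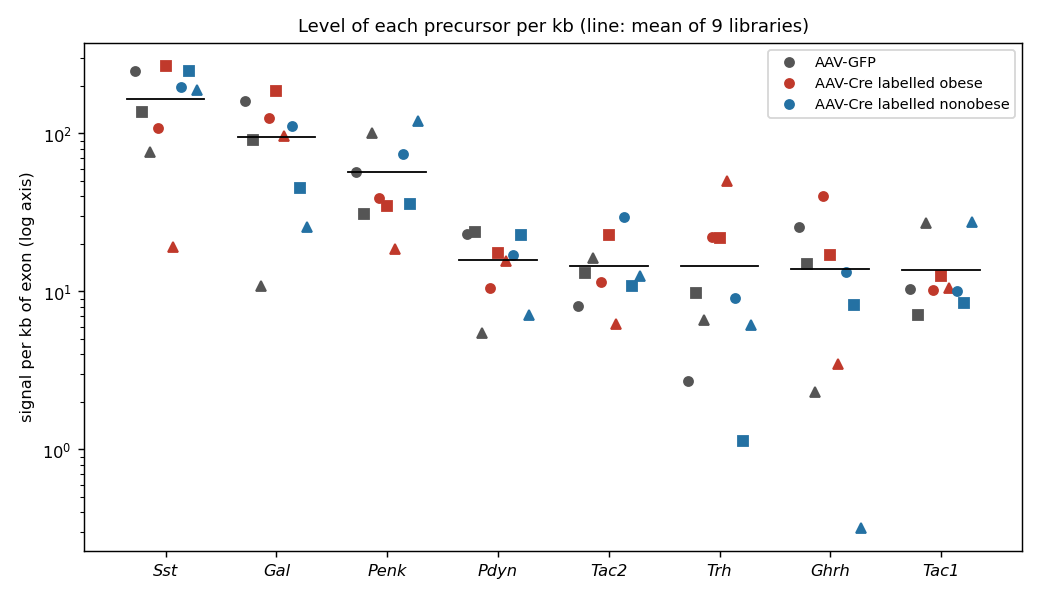
Signal per kb of exon (y axis, log scale) of each precursor in the 9 libraries, coloured by group and with shapes for replicates 1 (circle), 2 (square) and 3 (triangle), with the mean as a line. Sst, Gal and Penk have means of 166, 94.6 and 56.8, above the 13.8 to 15.9 of the other 5.

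Pairs of precursors were compared over the 9 libraries on log2 values. Of 28 pairs, 14 had a positive Pearson's r and 0 passed a Benjamini-Hochberg adjusted permutation p of 0.1, with 6 at a raw p under 0.05. The strongest was Tac1 with Pdyn (r = -0.90, Spearman's rho -0.72, permutation p 0.0038 and 0.0369, adjusted 0.107 and 0.516). It fell to r = -0.48 without AAV-GFP replicate 3 and labelled nonobese replicate 3, and so rests on them.

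For each precursor the genes of most similar level across the 9 libraries were listed among 11894 entries, as a description and with no test. Trh was most like Zfp652 (r = 0.97), Chd7 (0.96) and Gpam (0.96), and 39 entries exceeded 0.9. Gal was most like Fosl2 (0.95), whose product is an AP-1 transcription factor, Nucb2 (0.94), the nesfatin precursor, and Nop53 (0.93). Sst was most like Cby1 (0.97), Slc1a1 (0.96) and Acvr1c (0.96), Penk like Ndufa11 (0.96), Rasl10b (0.93) and Kcnj2 (0.93), and Pdyn like Tmem132d (0.95), Yipf6 (0.92) and Tnfaip8l3 (0.92). Ghrh was most like Uaca (0.96), Daglb and Prune2 (both 0.92), Tac2 like Pcbp4 (0.95), Tada2b (0.94) and Rprd1b (0.93), and Tac1 like Pbx3 (0.91), Ret (0.88) and Ramac (0.87). Ret and Pbx3 were highest in the same 2 libraries as Tac1, at 67.2 and 46.3 for Ret and at 42.5 and 39.5 for Pbx3.

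Receptors of the peptides were measured for 12 of 21 genes, and limma called 0 of 12 in each of the 3 comparisons and in all AAV-Cre against AAV-GFP. In the libraries labelled obese against AAV-GFP, 3 of 12 had an unadjusted p under 0.05, against 9.88% of entries, all with a negative log2 fold change: Oprk1, the dynorphin receptor (-1.76, SE 0.57, FDR 0.24), Sstr3, a somatostatin receptor (-2.67, SE 0.86, FDR 0.237), and Tacr3, the neurokinin B receptor (-2.31, SE 0.78, FDR 0.263). Groups did not overlap, in the lower direction, for 5 of 12 (these with Sstr2 and Trhr, the thyrotropin-releasing hormone receptor), against 7.27% of entries. Oprk1 was 29.4, 21.3 and 25.6 in AAV-GFP, 1.80, 12.03 and 11.6 in the libraries labelled obese, and 14.9, 32.7 and 15.6 in those labelled nonobese. The fold changes of Sstr3 and Tacr3 drew on values at or near 0. Sstr3 was 0, 0 and 1.16 and Tacr3 was 5.18, 0 and 1.39 in the libraries labelled obese. In AAV-GFP they were 3.24 to 13.2 and 7.66 to 17.7. Trhr was 16.7, 10.5 and 10.3 in AAV-GFP, 8.10, 9.76 and 3.49 in the libraries labelled obese, and 4.90, 9.69 and 1.71 in those labelled nonobese. All 6 AAV-Cre values of Trhr lay below the 3 AAV-GFP values, without passing the test. It was the only receptor of 12 whose groups did not overlap in this comparison, against 2.01% of entries. Unadjusted p was under 0.05 for 4 of 12 receptors between the subsets (11.4% of entries), and for 0 of 12 in nonobese-labelled (2.27%) and in all AAV-Cre (3.14%) against AAV-GFP. The summed neuron markers were lowest in the same libraries labelled obese that stood apart in immune genes. Replicate 2 labelled obese, where Sstr3 and Tacr3 were both at 0, had a neuron marker sum of 6525. The part of neuron content in the receptor values was not tested. In obese-labelled against AAV-GFP, the median log2 fold change of the 12 was -0.58, against -0.04 over all entries.

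Genes that process precursors or form secretory granules were measured for 20 of 20. Limma called 1 of 20 between the AAV-Cre subsets and 0 of 20 in the other comparisons, where 4 had an unadjusted p under 0.05 in obese-labelled, 0 in nonobese-labelled and 2 in all AAV-Cre against AAV-GFP. Over all entries, limma called 0.948% between the subsets, and 9.88%, 2.27% and 3.14% had an unadjusted p under 0.05 in the other comparisons in that order. The gene called was Vgf, the precursor of a granin-like protein of secretory granules. Vgf was 155, 105 and 73.6 in AAV-GFP, 219, 186 and 213 in the libraries labelled obese, and 126, 46.9 and 88.3 in those labelled nonobese. Between the AAV-Cre subsets it was lower in the libraries labelled nonobese, by a log2 fold change of -1.34 (SE 0.29, limma FDR 0.0245), and obese-labelled against AAV-GFP gave 0.94 (SE 0.29, FDR 0.203). Cadps2, a factor of dense-core vesicle release, differed from AAV-GFP by a log2 fold change of -1.31 (limma FDR 0.108) in the libraries labelled obese. The convertases Pcsk1 and Pcsk2 and the trimming and amidating enzymes Cpe and Pam differed by -0.20 (SE 0.37), -0.03 (SE 0.23), 0.24 (SE 0.15) and -0.01 (SE 0.14) in the same comparison, with limma FDR of 0.624 to 0.99. Of 30 other neuropeptide precursors, 11 had an entry and limma called 0 in each comparison, with Adcyap1 at an unadjusted p under 0.05 in obese-labelled against AAV-GFP, Adcyap1 and Agrp between the subsets, and Pmch in nonobese-labelled and in all AAV-Cre against AAV-GFP.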

How the data were processed

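RNA from laser-captured mediobasal hypothalamus of 9 mice was sequenced after low-input stranded amplification. The authors deposited a signal table (CPM scaled between libraries by their normalization), made per the submitters' processing notes with CASAVA 1.7, TopHat2 2.0.11, HTSeq, edgeR and limma on GRCm38. The strand setting of counting was not given in the sources used here. Each signal was a whole multiple of 1 read (within 0.01 read for 100% of values), so reads were recovered for count tests. The main test, planned for CPM, was limma 3.58.1 with a variance trend on log2(signal + 1), in which fold changes of low genes are understated. The 13506 entries that reached a signal of 1 in 3 or more libraries were tested, all 3 groups in 1 fit, with Benjamini-Hochberg FDR under 0.1 as threshold. All AAV-Cre libraries together were compared with AAV-GFP in a 2-group fit. Each library came from a separate mouse. The limma test was checked on simulated reads for 1 comparison, obese-labelled against AAV-GFP. Changes were set only in entries whose mean signal lay above those of Trh and Ghrh. The simulated spread followed the trend over all entries, below that of most precursors, so the check does not cover them. Alternatives used edgeR 4.0.16 and DESeq2 1.42.0. Genes named were all precursors, for each the 3 entries of highest Pearson's r at a mean signal of 5 or more, and from lists those past the threshold or with a role tied to a precursor. Region, glia and immune genes were named as they moved with results, and the genes and lists were chosen with earlier results of these data known.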

Additional observations from a re-analysis of the deposited data

Results flagged for a closer look

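Tac1 was flagged because 1 of the 6 AAV-Cre libraries, labelled nonobese replicate 3, lay far from the others: its signal was 93.5, against 28.5 to 42.4 in the other 5, and the gap to the nearest was 0.786 of the range, above Dixon's 95% critical value for 6 values. Of 8 precursors examined in this way 1 was flagged, where chance flags about 1 in 20 groups. AAV-GFP replicate 3, in another group, had a Tac1 signal of 92.4.

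Trh was flagged because the AAV-Cre subsets differed in the test of the difference itself, by a log2 fold change of -2.57 for nonobese-labelled against obese-labelled (limma FDR 0.0699). It was 30.2 to 69.5 in the libraries labelled obese and 1.57 to 12.6 in those labelled nonobese.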

How the results depend on the processing

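Depth limits Ghrh and Trh most, whose lowest libraries held 1 and 6 reads. Over 384 alternatives of the 32 single-gene differences that left out no library of the groups compared, 361 kept their direction and their side of the threshold. Of the rest, 10 turned sign, 8 newly passed and 5 were lost. Many could not turn sign. The log2 fold change stays the same with another filter, no variance trend, a replicate block, another FDR threshold or another grouping in the fit. Over 288 further refits that left out 1 library, 233 kept both, 45 turned sign, 6 newly passed and 4 were lost. It also stays the same where that library belonged to neither group compared. The counts kept therefore overstate how stable the directions are. Each turned value below had a difference that did not pass the test as reported, and the cause was not tested.

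The count of precursors called in obese-labelled against AAV-GFP, 0 as reported, was 1 (Trh) with a pseudocount of 5, edgeR's likelihood ratio test and DESeq2, and ranged from 0 to 2 with 1 library left out. Between the subsets the count, 1 as reported, was 0 with a pseudocount of 0.1, without a variance trend, with edgeR's quasi-likelihood test, at an FDR threshold of 0.05 and with only the 2 groups compared in a fit, 2 with edgeR's likelihood ratio test, and 0 to 3 with 1 library left out. There, 128 of 13506 entries were called as reported, and 70, 15, 141, 68, 64 and 398 in those settings in that order. With 1 library left out it was 2 to 906 entries. The labels do not say whether the replicate numbers pair the mice. Same-numbered libraries correlated at -0.02 to 0.09 in their deviations from group means, and other pairs at -0.09 to 0.04. Of 9 libraries, 4 correlated best with their own number in both other groups, and pairing was not tested further. With a replicate block the counts were 1 of 8 in obese-labelled against AAV-GFP, 4 of 8 between the subsets (Trh, Penk, Sst and Gal) and 0 in the other 2 comparisons. Of 13506 entries, the block gave 200 calls in obese-labelled against AAV-GFP and 271 between the subsets. It gave 3 each in nonobese-labelled and in all AAV-Cre against AAV-GFP. With correlations taken on deviations from group means, 6 of 28 pairs passed by Pearson's r and 3 by Spearman's rho, where 0 did as reported. The permutation swapped these deviations freely over all 9 libraries, though those of a group sum to 0. Its p-values are thus likely too small, and these counts cannot show that pairs vary together within groups.

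On the reads, 3 differences turned sign: Tac2 in obese-labelled against AAV-GFP to 0.10 with both edgeR tests and 0.12 with DESeq2, Pdyn between the subsets to 0.103, 0.104 and 0.0865, and Sst in all AAV-Cre against AAV-GFP to 0.15, 0.15 and 0.16. Centring on library medians turned Pdyn between the subsets to 0.046.

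With 1 library left out, values that turned sign ranged as follows. In obese-labelled against AAV-GFP they ran from -1.56 to 0.30 for Sst, from -0.43 to 1.22 for Ghrh, from -0.60 to 0.35 for Tac1, from -0.47 to 0.40 for Tac2 and from -0.71 to 0.32 for Pdyn. In nonobese-labelled against AAV-GFP they ran from -1.23 to 0.64 for Gal, from -1.72 to 0.0083 for Ghrh, from -0.44 to 0.62 for Tac1, from -0.0454 to 0.65 for Tac2, from -0.15 to 0.74 for Penk, from -0.72 to 0.44 for Pdyn and from -0.84 to 0.36 for Trh. Between the subsets the ranges were -0.25 to 0.59 for Tac1, -0.0212 to 0.86 for Tac2 and -0.36 to 0.46 for Pdyn. For all AAV-Cre against AAV-GFP they were -0.48 to 0.48 for Sst, -0.56 to 1.31 for Gal, -1.08 to 0.34 for Ghrh, -0.46 to 0.49 for Tac1, -0.0822 to 0.39 for Tac2, -0.75 to 0.10 for Penk and -0.71 to 0.31 for Pdyn.

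Both further alternatives were chosen after seeing the data. With AAV-GFP replicate 3 and labelled nonobese replicate 3 left out, 0 precursors were called between the subsets, where 43 of 13430 entries were. Differences then turned to -0.43 for Ghrh, 0.35 for Tac1 and 0.18 for Tac2 in obese-labelled against AAV-GFP, to -0.25 for Tac1 and 0.46 for Pdyn between the subsets, and to -0.24 for Gal and 0.25 for Tac1 in all AAV-Cre against AAV-GFP. With only replicate 2 kept of the libraries labelled obese, 0 were called. Differences then turned to 0.95 for Sst, 0.88 for Tac2 and 0.27 for Pdyn in obese-labelled against AAV-GFP, to -0.35 for Sst and -0.49 for Tac2 between the subsets, and to 0.69 for Sst, 0.0513 for Tac1, 0.0361 for Penk and 0.0358 for Pdyn in all AAV-Cre against AAV-GFP.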
